A study of Sus scrofa with 6 samples.

Results

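PLIN1, PDE3B and MGLL code for proteins that fat cells use to hold and release stored fat. Their differentially methylated regions (DMRs) were taken from a table of regions in which backfat DNA of 2 pig breeds differed, by the human gene symbol given there. Of 14163 DMRs in the table, 5 belonged to these genes, namely 1 of PLIN1, 2 of PDE3B and 2 of MGLL. Backfat came from 3 female Landrace pigs (LBF, the leaner breed) and 3 female Rongchang pigs (RBF, the fatter breed), each slaughtered at 210 days of age, with 1 library per pig. The labels and methods name no treatment and no engineered allele in either breed, all pigs were housed alike, and all were fasted before slaughter with free access to water. Breed is what the labels give as separating the groups, and effects of methylation and of DNA sequence differences between the breeds cannot be told apart. In methylated DNA immunoprecipitation sequencing (MeDIP-seq), fragments that carry methylated cytosine are captured by an antibody and sequenced, and more methylated CpG sites collect more reads. The method does not give the share of methylated copies at a site.

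A fat cell keeps its triglyceride in a lipid droplet. Perilipin 1, the product of PLIN1, coats this droplet and holds lipases off until hormones that raise cAMP lead to its phosphorylation. PDE3B, a phosphodiesterase, breaks down cAMP and is a main route by which insulin restrains fat release in fat cells. MGLL, monoglyceride lipase, takes the last step of fat breakdown, which frees glycerol and the remaining fatty acid, and it also degrades an endocannabinoid. These roles are known mostly from human and rodent fat cells. No expression was measured in the data analysed here, and the labelled tissue could not be checked against marker expression. In bulk tissue, a different share of cells of a type and a different methylation per cell cannot be told apart.

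The values below are normalized read depths, averaged by the authors over the CpGs in each DMR and scaled for each library. The median depth over all DMRs was 34.1 to 35.4 in LBF and 9.40 to 14.4 in RBF, with the lowest value in RBF replicate 3. The log2 fold change compares LBF with RBF on log2(depth + 1), and is given with standard errors (SE) and Benjamini-Hochberg adjusted p-values from limma over all 14163 DMRs. The table lists only regions that the study had called on these same libraries. Among all DMRs, 84.5% had an adjusted p under 0.05 and a higher depth in LBF, 15.1% had one and a lower depth in LBF, and LBF and RBF libraries were fully apart in 100% of them. The adjusted p-values thus describe how large a difference was beside the spread between pigs. They do not test anew whether a region differed.

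All 5 DMRs of PLIN1, PDE3B and MGLL had a higher depth in LBF, with adjusted p under 0.05. This count is read against the 84.5% of all DMRs, and with 5 regions nothing in direction sets these genes apart. The ratio of the mean depths of LBF and RBF was 1.50 at the MGLL intron, 2.45 and 3.63 at the PDE3B introns, 3.67 at the PLIN1 promoter and 4.01 at the last exon of MGLL. The median of the log2 fold changes over the whole table was 1.64, a value that includes the DMRs lower in LBF. Of the 5, 2 lay above it, the PLIN1 promoter and the MGLL exon, and 3 below. Over the DMRs higher in LBF the median was 1.82, with the PLIN1 promoter (1.81) just below it and the MGLL exon (1.85) just above. None of the 5 lay in a CpG island or a CpG island shore. They spanned 65 to 202 bp and held 5 to 8 CpGs, where the table had a median of 148 bp and 7 CpGs and required at least 5. Among genes in the table, 67.2% of 2686 with a human symbol had 1 DMR, as PLIN1 did, and 17.8% had 2, as PDE3B and MGLL did.

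**Figure D1:**
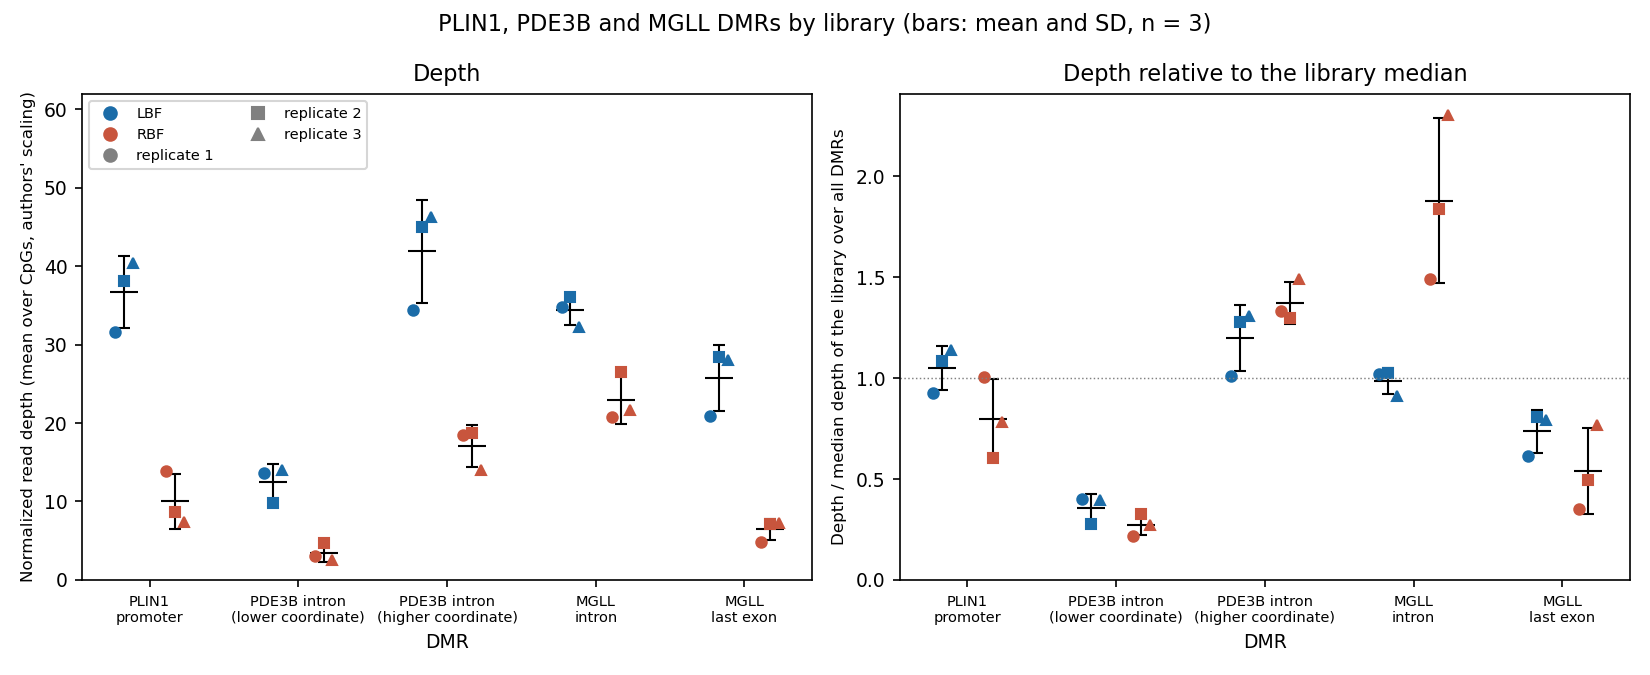
Normalized read depth of the 5 DMRs in each library (left) and the same depth divided by the median depth of that library over all DMRs (right), with LBF to the left of RBF at each DMR; bars give the mean and SD of 3 pigs. Every LBF library lies above every RBF library on the left, whereas on the right the MGLL intron lies at 0.911 to 1.03 in LBF and at 1.49 to 2.31 in RBF.

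The DMR of PLIN1, the droplet coat, lies in the promoter on chromosome 7, 60141508 to 60141610 (Sscrofa10.2, as all positions here), over 103 bp with 7 CpGs. The table assigns it to the transcript ENSSSCT00000002066, and classes the promoter as low in CpG (LCP) and the DMR as distal, without giving the limits of these classes. Its depth was 31.6, 38.1 and 40.3 in LBF, against 13.9, 8.70 and 7.38 in RBF. The lowest LBF library was thus 2.27 times as high as the highest RBF library. The means were 36.7 ± 4.57 in LBF and 10.0 ± 3.46 in RBF (SD, n = 3 per breed), with a log2 fold change of 1.81 (SE 0.27, limma adjusted p = 0.0020). Relative to the mean, the RBF pigs varied more, with a coefficient of variation of 12.5% in LBF and 34.6% in RBF. Their SD in depth was the smaller of the breeds. Both coefficients were close to the medians of 12.3% in LBF and 34.3% in RBF over all DMRs.

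Low-CpG promoters were the least common class, with 48 of the 402 promoter DMRs, against 256 in promoters of intermediate and 109 in promoters of high CpG content, where a DMR can belong to promoters of more than 1 class. Of the 20 distal DMRs of low-CpG promoters, 20 had a higher depth in LBF, with a median log2 fold change of 1.54. Of all promoter DMRs, 83.6% were higher in LBF. The fold change at PLIN1 exceeded that of 56.7% of the promoter DMRs, a share that includes those lower in LBF. Over the promoter DMRs higher in LBF, the median log2 fold change was 1.85. The PLIN1 DMR was CpG-dense for its class, with 6.80 CpGs per 100 bp against a median of 4.79 over the DMRs of low-CpG promoters. Among DMRs of other genes, those closest to it over the 6 libraries, by Euclidean distance of log2(depth + 1), lay downstream of NSMCE4A (distance 0.36) and in introns of ZNF133 (0.36) and VPS13B (0.42). This likeness is one of depth in these libraries, over 4348 DMRs of gene elements searched.

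Both DMRs of PDE3B, which ends the cAMP signal, lie in internal introns of the transcript ENSSSCT00000024520 on chromosome 2, 18487 bp apart. The DMR at the lower coordinate (47627699 to 47627763) spans 65 bp with 5 CpGs, and had a depth of 13.6, 9.80 and 14.0 in LBF, against 3.05, 4.69 and 2.58 in RBF. This was the least covered DMR of the 5. Before the authors' scaling, the read depths of its 5 CpGs summed to 58, 38 and 59 in LBF, against 10, 15 and 10 in RBF, and a single read can cover several of these CpGs. The means were 12.5 ± 2.33 in LBF and 3.44 ± 1.11 in RBF (SD, n = 3 per breed), with a log2 fold change of 1.62 (SE 0.26, limma adjusted p = 0.0023).

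The PDE3B DMR at the higher coordinate (47646251 to 47646452) spans 202 bp with 8 CpGs, at 3.96 CpGs per 100 bp against 7.69 in the other. It had a depth of 34.4, 45.0 and 46.3 in LBF, against 18.5, 18.7 and 14.0 in RBF. Here the breeds also stood apart, but the lowest LBF library was only 1.83 times as high as the highest RBF library. The means were 41.9 ± 6.53 in LBF and 17.1 ± 2.64 in RBF (SD, n = 3 per breed), with a log2 fold change of 1.24 (SE 0.22, limma adjusted p = 0.0029). Of all intron DMRs, 35.1% had a smaller log2 fold change than this DMR and 51.1% a smaller one than the DMR at the lower coordinate. These shares include the intron DMRs lower in LBF, and over those higher in LBF the median was 1.76. In both PDE3B DMRs and in the PLIN1 promoter RBF replicate 3, the library with the lowest median depth, was the lowest of the 6, but not in the MGLL DMRs. The DMRs closest in pattern to the one with 8 CpGs lay in introns of RNF17 (distance 0.20), LDLRAD3 (0.30) and MYO7A (0.31).

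MGLL, the lipase of the last step, held the smallest and the largest fold change of the 5. Both DMRs are assigned to the transcript ENSSSCT00000030864 on chromosome 13, 28353 bp apart, and each holds 5 CpGs. The last exon (80084334 to 80084468, 135 bp) had a depth of 20.9, 28.4 and 28.0 in LBF, against 4.88, 7.19 and 7.23 in RBF. The lowest LBF library was 2.89 times as high as the highest RBF library, the widest gap of the 5 DMRs. Coverage was low in RBF here too. Unscaled, the depths of the 5 CpGs summed to 89, 110 and 118 in LBF, against 16, 23 and 28 in RBF. The means were 25.8 ± 4.20 in LBF and 6.43 ± 1.35 in RBF (SD, n = 3 per breed), with a log2 fold change of 1.85 (SE 0.24, limma adjusted p = 0.0016). The table does not say whether this part of the exon is coding. Exons as a whole leaned less to LBF, with 72.4% of 261 exon DMRs and 53 of 73 last-exon DMRs higher in LBF. The log2 fold change of the MGLL exon exceeded that of 70.9% of the exon DMRs, a share that includes those lower in LBF. Over the exon DMRs higher in LBF, the median was 1.63.

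The internal intron of MGLL (80055897 to 80055980, 84 bp) had a depth of 34.8, 36.1 and 32.3 in LBF, against 20.7, 26.6 and 21.7 in RBF. The breeds did not overlap, but the lowest LBF library was only 1.22 times as high as the highest RBF library, where the median of this ratio over all DMRs was 2.14. The means were 34.4 ± 1.94 in LBF and 23.0 ± 3.13 in RBF (SD, n = 3 per breed), with a log2 fold change of 0.57 (SE 0.19, limma adjusted p = 0.025), and its difference from the median of all DMRs was -1.08. Only 17.4% of the intron DMRs had a smaller log2 fold change, a share that includes those lower in LBF. The adjusted p was 0.071 without LBF replicate 1, 0.085 without LBF replicate 2, 0.055 without LBF replicate 3 and 0.058 without RBF replicate 1, with log2 fold changes of 0.50 to 0.67 over all libraries left out in turn. The DMRs closest in pattern to this intron lay in introns of SUSD4 (distance 0.24) and THSD4 (0.28) and in a region annotated to PREB and PRR30 (0.34) as promoter or downstream sequence. Those closest to the last exon lay in introns of GAB4 (0.26), KCNN3 (0.40) and TENM1 (0.43).

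**Figure D2:**
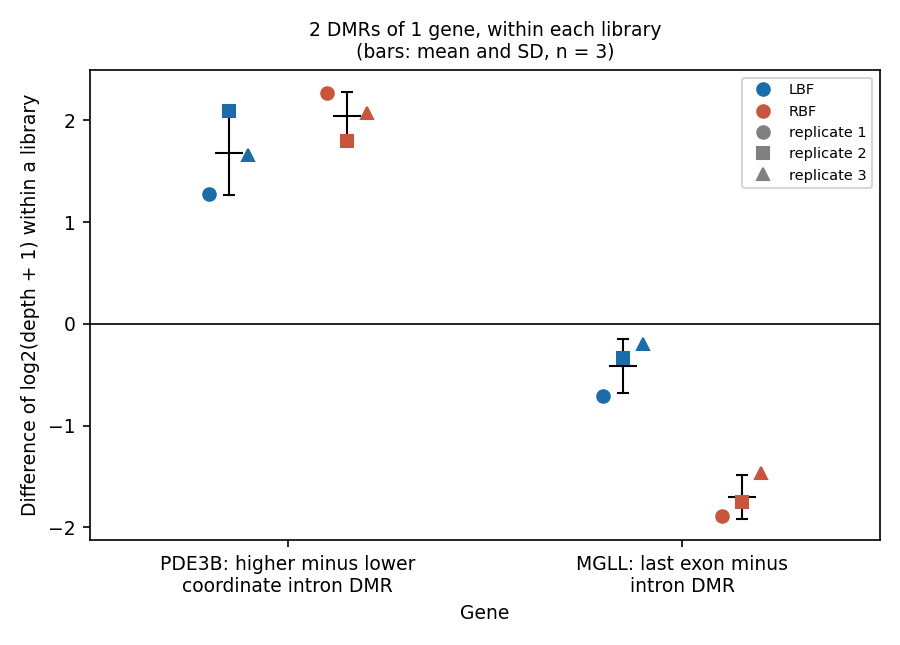
Difference of log2(depth + 1) between the 2 DMRs of PDE3B and of MGLL within each library, with LBF to the left of RBF and bars for the mean and SD of 3 pigs. The MGLL exon lies below the MGLL intron in every library, by far less in LBF than in RBF, whereas the PDE3B differences of the breeds overlap.

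Setting the 2 DMRs of a gene against each other within a library removes the scaling of that library from the depth ratio. The difference of log2(depth + 1) keeps an effect of the added 1, which is larger at low depth. At MGLL the depth of the last exon divided by that of the intron was 0.601, 0.786 and 0.868 in LBF, against 0.235, 0.271 and 0.333 in RBF. The exon was thus the less covered region in each pig, and the breeds did not overlap in this ratio. In how many other genes with 2 DMRs the breeds also did not overlap was not counted, so this is not read as particular to MGLL. The difference of log2(depth + 1), exon minus intron, was -0.41 ± 0.26 in LBF and -1.70 ± 0.22 in RBF (SD, n = 3 per breed). At PDE3B the depth at the higher coordinate was 2.52, 4.59 and 3.31 times that at the lower one in LBF, against 6.06, 4.0 and 5.44 times in RBF. Here the breeds overlapped, and the difference of log2(depth + 1) was 1.67 ± 0.41 in LBF and 2.04 ± 0.24 in RBF. The added 1 made these differences smaller than the log2 of the depth ratios, most in RBF, where mean depth at the lower coordinate was 3.44. These ratios were described and not tested, and 3 pigs against 3 cannot give an exact two-sided permutation p under 0.10. The gap between the log2 fold changes of both DMRs exceeded that of 57.3% of the 478 genes with 2 DMRs for MGLL, and of 19.2% for PDE3B, where the median gap was 1.01. In 28.0% of these genes the DMRs had opposite directions, and in 68.2%, as in PDE3B and MGLL, both were higher in LBF.

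The size of each fold change also moved with how the libraries were scaled. When every library was given the same median over the listed DMRs, the median log2 fold change of all DMRs shifted by -1.41. This setting divides out the gap between the breeds in library median, 34.1 to 35.4 in LBF against 9.40 to 14.4 in RBF. Those medians are taken over regions already selected as different, mostly higher in LBF. It left a median log2 fold change of 0.24 over all DMRs, and what underlies the gap was not tested. The log2 fold change was then 0.40 at the PLIN1 promoter (adjusted p = 0.28), 0.34 and -0.20 at the PDE3B introns (adjusted p = 0.33 and 0.52), 0.48 at the MGLL last exon (adjusted p = 0.29) and -0.88 at the MGLL intron (adjusted p = 0.037, limma). The MGLL intron was the only DMR of the 5 below 0.05 in that setting, in favor of RBF. Relative to the library median its depth was 1.02, 1.03 and 0.911 in LBF, against 1.49, 1.84 and 2.31 in RBF. Of all DMRs, 10.9% were then past the threshold as higher and 17% as lower in LBF. Without any scaling per library, the 5 log2 fold changes were 0.81 to 2.03, all with adjusted p under 0.05, and the median of all DMRs was 1.85.

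**Figure D3:**
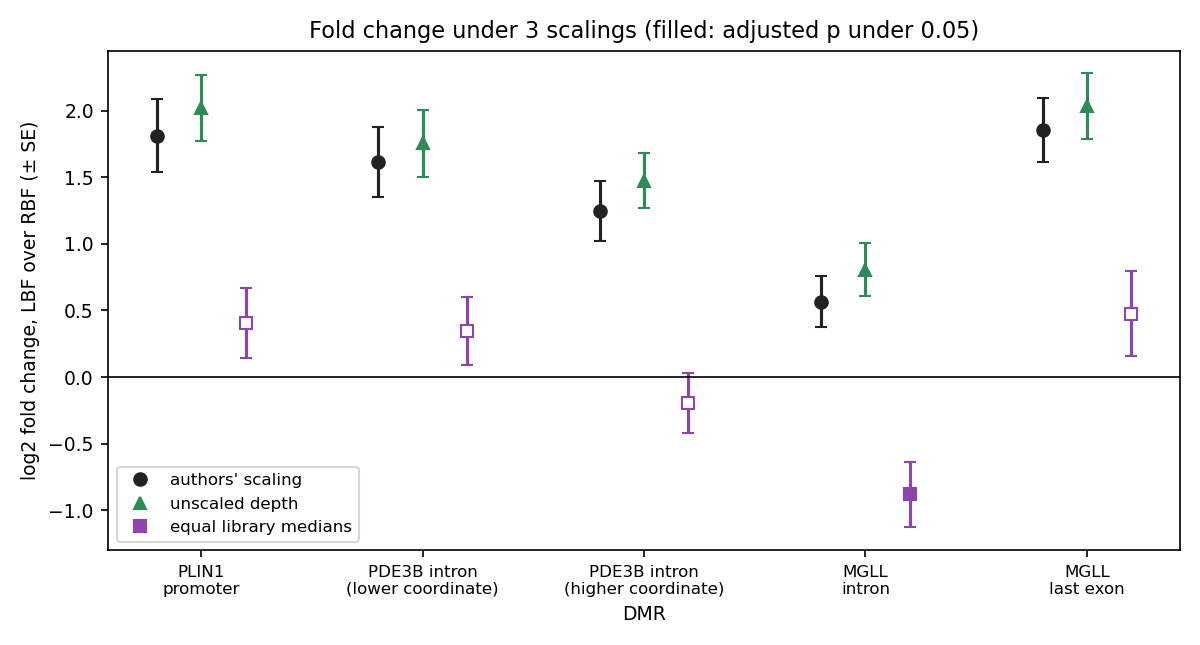
Log2 fold change of LBF over RBF with its standard error from limma for the 5 DMRs, under the authors' scaling, without scaling and with equal library medians; filled symbols have an adjusted p under 0.05. All 5 lie above 0 in the first pair of settings, and with equal library medians the MGLL intron lies at -0.88 and the others between -0.20 and 0.48.

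Within 500 kb of the PLIN1 promoter DMR the table listed 12 other DMRs, of which 9 were higher and 3 lower in LBF, where 84.8% of all DMRs were higher. The nearest, at 50.6 kb, lay in an intron of WDR93, with a depth of 63.2 ± 12.1 in LBF, against 11.9 ± 5.49 in RBF (SD, n = 3 per breed), and a log2 fold change of 2.40 (limma adjusted p = 0.0022). On the other side, 108 kb away, an intron of RHCG, an ammonium transporter, had 69.9 ± 3.86 in LBF and 22.5 ± 6.70 in RBF. The 3 DMRs lower in LBF lay in introns of AP3S2, a subunit of a vesicle adaptor, and RLBP1, a retinoid-binding protein, and both genes also held a DMR higher in LBF. In AP3S2 these were 145 and 146 kb from the PLIN1 DMR, with log2 fold changes of -2.16 and 1.41.

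Around PDE3B there were 5 other DMRs within 500 kb, all intergenic, with 2 higher and 3 lower in LBF. Whether the surroundings of PLIN1 and PDE3B differed in direction was not tested. The nearest, at 196 kb, had 17.8 ± 4.72 in LBF, against 0.521 ± 0.902 in RBF, with RBF depths of 0, 1.56 and 0 (log2 fold change 3.75). Farther out, at 215 kb, another had 20.7 ± 2.58 in LBF, against 38.6 ± 2.85 in RBF (log2 fold change -0.87, limma adjusted p = 0.0051). For MGLL the table listed 0 other DMRs within 500 kb, and the nearest were 861 and 918 kb away.

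**Figure D4:**
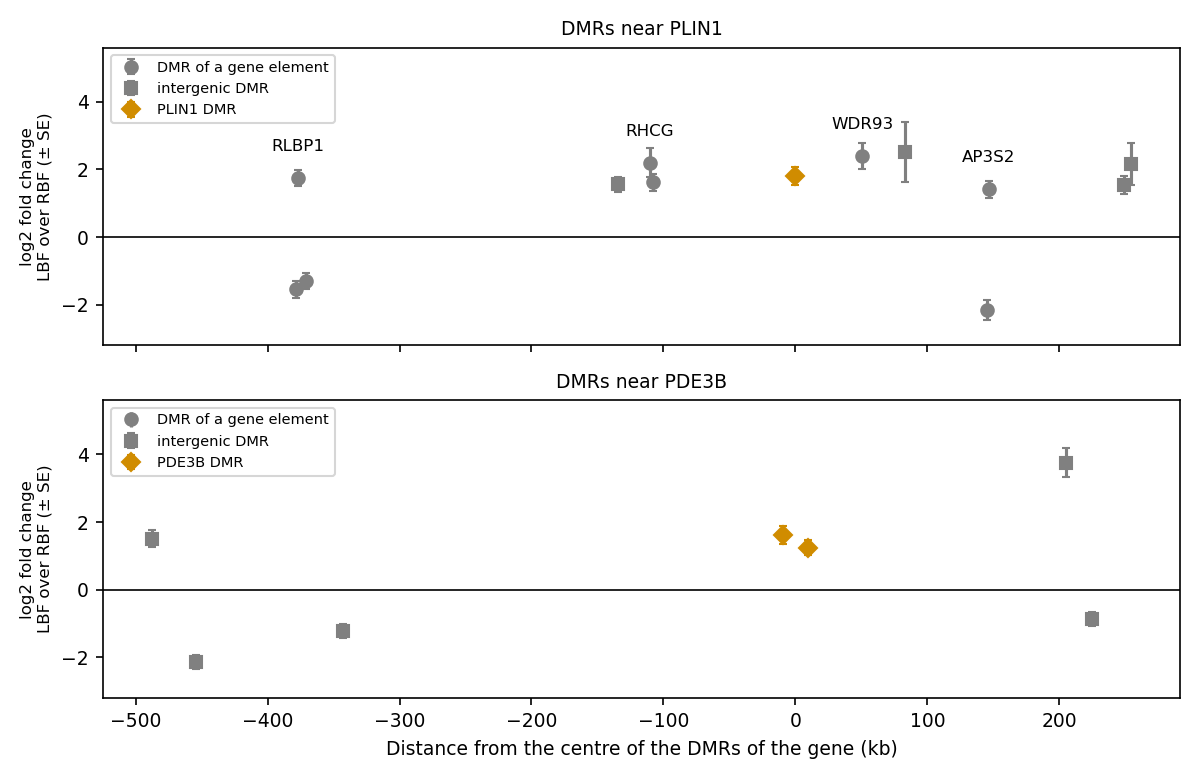
Log2 fold change with its standard error of every listed DMR within 500 kb of the PLIN1 DMR (top) and the PDE3B DMRs (bottom), against the distance from the centre of the DMRs of the gene in kb. Near PLIN1 9 of 12 other DMRs lie above 0, near PDE3B 2 of 5.

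Of a list of 77 lipid droplet and lipolysis genes that includes PLIN1, PDE3B and MGLL, 10 had a DMR. The share of all genes with a DMR is not known here. Counts of genes with a DMR, by role and for cell type markers, are therefore not read as more or fewer than elsewhere. Their 15 DMRs were all higher in LBF with adjusted p under 0.05, against 84.5% of all DMRs. The median log2 fold change of the 15 was 2.06, against 1.64 over all DMRs and 1.82 over those higher in LBF. Several of the 15 share a gene, such as those of ADCY2 and of ADCY3, and whether the list differs from other DMRs was not tested. Without PLIN1, PDE3B and MGLL, 7 genes held 10 DMRs, all higher in LBF, with a median of 2.30. With equal library medians 1 of the 15 was past the threshold as higher in LBF, an intron of ADCY2, and 2 as lower, the MGLL intron and an intron of ADCY5. By role, the droplet coat and growth genes had 1 of 18 genes with a DMR, which was PLIN1 itself. Of 16 genes of lipases, their cofactors and product handling, MGLL and CES1 had one. None of 10 receptor genes for signals that start or restrain lipolysis had one, among them the beta-adrenergic receptors ADRB1 and ADRB3. No DMR stood in the table for PNPLA2, LIPE or ABHD5, the lipases of the earlier steps and their activator, which says nothing of their methylation level.

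The genes of cAMP, cGMP and G protein signaling, 24 of the 77 listed, held 10 of the 15 DMRs. Besides PDE3B, 5 of them had a DMR, namely ADCY1, ADCY2, ADCY3 and ADCY5, adenylyl cyclases that make cAMP, and GNAS, the stimulatory G protein subunit. The first intron of ADCY2 held a DMR of 20 CpGs, with depths of 105, 104 and 93.3 in LBF, against 22.3, 13.1 and 13.6 in RBF (log2 fold change 2.59, SE 0.26, limma adjusted p = 0.0012). An intron of ADCY1 had depths of 96.6, 78.5 and 67.8 in LBF, against 15.8, 23.4 and 2.74 in RBF (log2 fold change 2.81). The 3 DMRs of ADCY3, the cyclase known for its link to obesity in humans and mice, had log2 fold changes of 2.06 to 2.18, and an intron of ADCY5 had the smallest of the list, 0.51. At GNAS, a DMR annotated to 17 transcripts had depths of 12.0, 14.5 and 12.5 in LBF, against 0, 0 and 3.66 in RBF (log2 fold change 3.06).

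**Figure D5:**
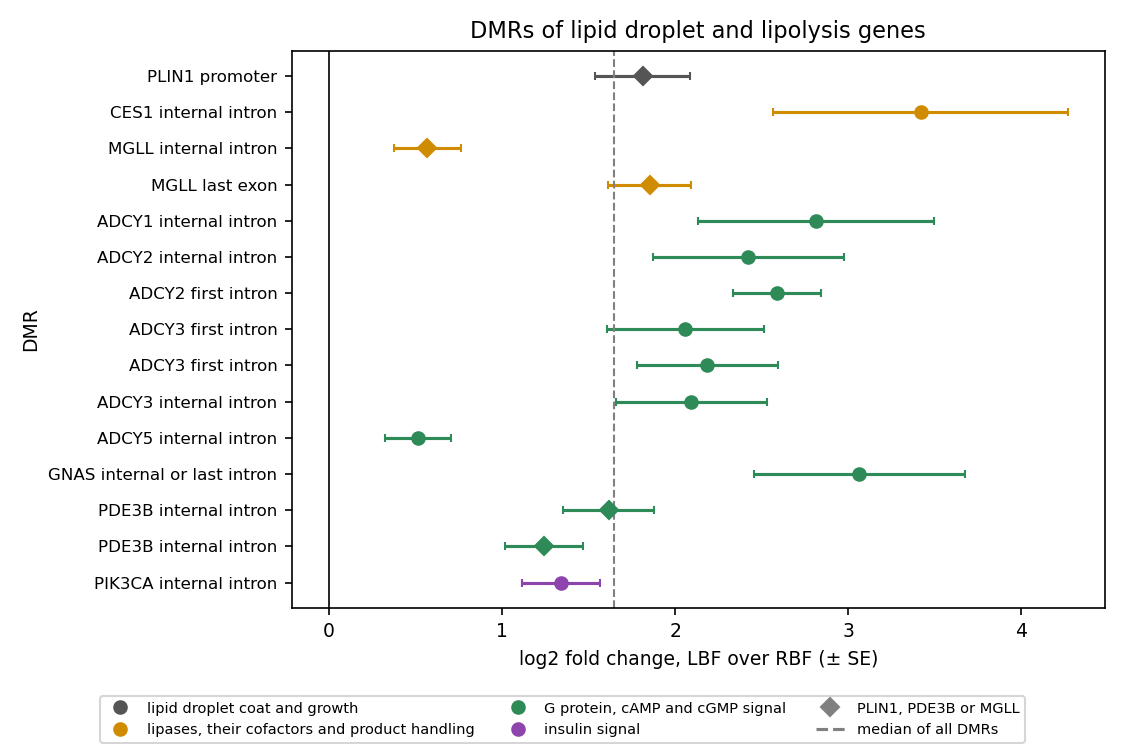
Log2 fold change of LBF over RBF with its standard error for the 15 DMRs of the lipid droplet and lipolysis list, by role; diamonds mark PLIN1, PDE3B and MGLL and the dashed line the median of all DMRs, 1.64. All 15 lie above 0, from 0.51 at ADCY5 to 3.42 at CES1, whereas the median of all DMRs includes those lower in LBF.

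CES1, a carboxylesterase that cleaves esters and lipids, had the largest fold change of the list, in an intron, at 25.7, 29.0 and 39.9 in LBF, against 10.7, 1.30 and 0 in RBF (log2 fold change 3.42, SE 0.85, limma adjusted p = 0.0073). The depths of 0 at CES1 and GNAS make their log2 fold changes depend on the added 1. In the insulin arm, which acts on PDE3B, an intron of PIK3CA, a catalytic subunit of phosphoinositide kinase, had a log2 fold change of 1.34, and it was the only 1 of 9 genes listed with a DMR. Of 31 marker genes of immune, muscle, endothelial and stromal cells, 7 had 11 DMRs, 10 higher and 1 lower in LBF, where 84.8% of all DMRs were higher, with a median log2 fold change of 1.59. Their summed depth was 401 to 421 in LBF and 133 to 168 in RBF. The library medians over all DMRs also lay apart, at 34.1 to 35.4 in LBF and 9.40 to 14.4 in RBF. The log2 fold changes of the marker DMRs ran from -0.60, at an intron DMR of the endothelial gene VWF, to 4.40. The latter was at a region of the T cell gene CD3E annotated as last exon and internal intron. Another intron DMR of VWF was higher in LBF, at 1.65. The part of cell composition in the DMRs of PLIN1, PDE3B and MGLL was not tested.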

How the data were processed

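The authors aligned MeDIP-seq reads with SOAP2 to Sscrofa10.2 (named in the submitters' processing notes), treated a read with several matches as 1 read, removed poorly covered CpGs, and built DMRs from neighboring CpGs that differed between the breeds. The deposited signal is the mean read depth (coverage) over the CpGs of a DMR, scaled per library by the authors (how these values were scaled: not given in the sources used here; a legend on profiles along chromosomes describes a scaling to the average number of reads in each group). Of the rest, the authors' deposited p-values, FDR and rounded breed means were not used. The table also holds other deposited numbers, namely position, length and number of CpGs. Multiplied by its CpG number, each depth was a whole number of equal steps in its library (100% of the DMRs, within 0.01), and division by the step gave the unscaled depth.

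The depths were fitted as log2(depth + 1) on breed alone in limma (version 3.58.1, under R 4.3.3), and p-values were adjusted after Benjamini-Hochberg over 14163 DMRs, with 0.05 as threshold. Other steps used python 3.11.15, pandas 2.3.3, numpy 2.4.6 and matplotlib 3.10.9. A DMR annotated to several transcripts was counted once. Alternatives were pseudocounts of 0.5 and 5, no log scale, DMRs averaging 10 or more in depth, equal library medians, unscaled depth, the replicate number as a block, and each library left out.

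The genes and lists were chosen with earlier results of these data known, and some genes are not reported here. Named were all DMRs of PLIN1, PDE3B and MGLL, the 4 list DMRs that differed most each way (0 were lower in LBF), list DMRs in promoters or exons, genes within 500 kb, and the 3 DMRs closest in pattern to the PLIN1 DMR and to the DMR with the most CpGs of PDE3B and MGLL (both MGLL DMRs hold 5). ADCY3, ADCY5, PIK3CA, VWF and CD3E were named after their values were seen. No genome of this build was used, so no sequence is shown.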

Additional observations from a re-analysis of the deposited data

How the results depend on the processing

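Of 59 log2 fold changes recomputed for the 5 DMRs, 49 kept their direction and their side of the limma threshold, 8 kept their direction but not the threshold, and 2 reversed. The differences of linear depth kept the direction and the threshold in all 5. With equal library medians, 0 of the DMRs of PLIN1, PDE3B and MGLL were past limma as higher in LBF (0 at an unadjusted p under 0.05) and 1 as lower, and the list of lipolysis genes had 1 higher and 2 lower (4 and 2 unadjusted). The log2 fold changes were then 0.40 (PLIN1 promoter), 0.34 and -0.20 (PDE3B introns), -0.88 (MGLL intron) and 0.48 (MGLL last exon). This setting lowers folds through the gap in library median between the breeds, taken over regions already selected as different. Apart from it, the calls of PLIN1, PDE3B and the MGLL exon held under every alternative run, except that the PDE3B DMR at the lower coordinate was not fitted at a mean depth of at least 10. That filter left 4 and 13 DMRs past limma.

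With the replicate number as a block, the log2 fold change of the MGLL intron was 0.57 with an adjusted p of 0.068, so that 4 of the 5 DMRs and 13 of the 15 of the list were past limma (13848 of all DMRs, against 14098 without it). The labels do not say that these numbers pair the pigs, although the paper names a paired t-test in figure legends. The deviations of libraries with the same number correlated at only 0.063, -0.012 and 0.061. Not every library correlated best with its own number. Such weak correlations cannot decide whether the pigs were paired. With each library left out in turn, the log2 fold change was 1.64 to 2.06 at the PLIN1 promoter, 1.47 to 1.81 and 1.12 to 1.38 at the PDE3B introns, 0.50 to 0.67 at the MGLL intron and 1.69 to 1.99 at the MGLL last exon. The counts past limma as higher in LBF were then 4 to 5 of 5 and 13 to 15 of 15. A pseudocount of 5 shifted the median of all DMRs by -0.31. Depth limits the PDE3B DMR at the lower coordinate most, at 3.44 in RBF.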
